A study of Homo sapiens with 2 samples.

Results

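Heterotrimeric G proteins and the regulators of G protein signalling (RGS proteins) were examined in RNA from HCT-116, an established human colorectal carcinoma cell line. The group comprised 25 listed genes for alpha, beta and gamma subunits and the 21 genes whose symbol is RGS followed by a number. All 46 were found among the 26260 gene symbols of the isoform table, with 142 of its 63236 isoforms. For each gene the FPKM (fragments counted per length of transcript and size of library) of its isoforms were summed in each library. A gene was counted as measured when its FPKM averaged 1 or more over the libraries, which 29 of the 46 members reached.

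The study sequenced poly-A RNA of HCT-116 cells labelled as control (the control library) and of HCT-116 cells that were serum starved and then given lysophosphatidic acid (LPA) at 10 µM for 24 h (the LPA library). The culture medium held serum and antibiotics, and the treatment text stands with both samples, so it is not clear whether the control cells were starved as well. Each condition is 1 library and both titles carry the number 3, so no difference below has a replicate check or a p-value, and starvation and LPA cannot be told apart as sources of a difference. In such bulk RNA, fewer cells of a type and less RNA per cell also cannot be told apart.

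LPA binds receptors in the plasma membrane that act through G proteins. A receptor bound by its ligand makes the alpha subunit exchange GDP for GTP, after which alpha and the beta-gamma pair each act on effectors. Alpha subunits of the Gs class stimulate adenylyl cyclase, those of the Gi class inhibit it, those of the Gq class activate phospholipase C beta, and GNA12 and GNA13 activate exchange factors of the GTPase RHOA. RGS proteins speed up GTP hydrolysis by alpha subunits and so shorten the signal. LPA receptors are known to couple to the Gi, the Gq and the GNA12 and GNA13 classes.

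The receptor reads the far end of the alpha subunit, so the last 11 codons before the stop codon are shown for the 10 measured alpha genes, with the codon 4 from the end in capitals. The sequences are those of the GENCODE release 29 transcripts matched to each leading isoform (the isoform with the highest mean FPKM), on GRCh38, coding strand, 5′ to 3′.
GNAS: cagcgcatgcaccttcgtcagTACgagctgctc
GNAL: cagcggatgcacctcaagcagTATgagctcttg
GNAI1: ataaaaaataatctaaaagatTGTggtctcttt
GNAI2: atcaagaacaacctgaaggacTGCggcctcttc
GNAI3: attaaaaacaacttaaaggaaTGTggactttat
GNAZ: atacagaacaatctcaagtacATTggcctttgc
GNAQ: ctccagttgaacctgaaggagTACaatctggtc
GNA11: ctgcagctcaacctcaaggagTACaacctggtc
GNA12: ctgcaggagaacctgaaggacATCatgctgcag
GNA13: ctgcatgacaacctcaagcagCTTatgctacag
GNAI1, GNAI2 and GNAI3 carry TGT or TGC there, the codons of the cysteine that pertussis toxin modifies. GNAZ, of the same class, carries ATT, and its product is known to be insensitive to the toxin.

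Members differed between the libraries about as much as genes in general. None of the 29 measured members was at least 2-fold apart on the log2 ratio, the log2 of LPA FPKM plus 1 over control FPKM plus 1. This scale makes differences at low FPKM look smaller. Over all 11688 genes that averaged 1 FPKM or more, 0.351% were 2-fold or more higher after LPA and 0.205% were 2-fold or more lower. At 1.5-fold no member was higher, where 1.45% of all genes were, and 1 of 29 (3.45%) was lower, where 1.54% of all genes were. That member was RGS2. The median log2 ratio was 0.02 over the measured members and 0.0009 over all genes. Of the members 18 were above 0 and 11 below, and of all genes 5864 were above and 5824 below. Within 0.25 of 0 on this scale lay 79.3% of the members and 70.5% of all genes. The median size of the log2 ratio, sign left out, was 0.164 over the members and 0.162 over all genes.

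**Figure D1:**
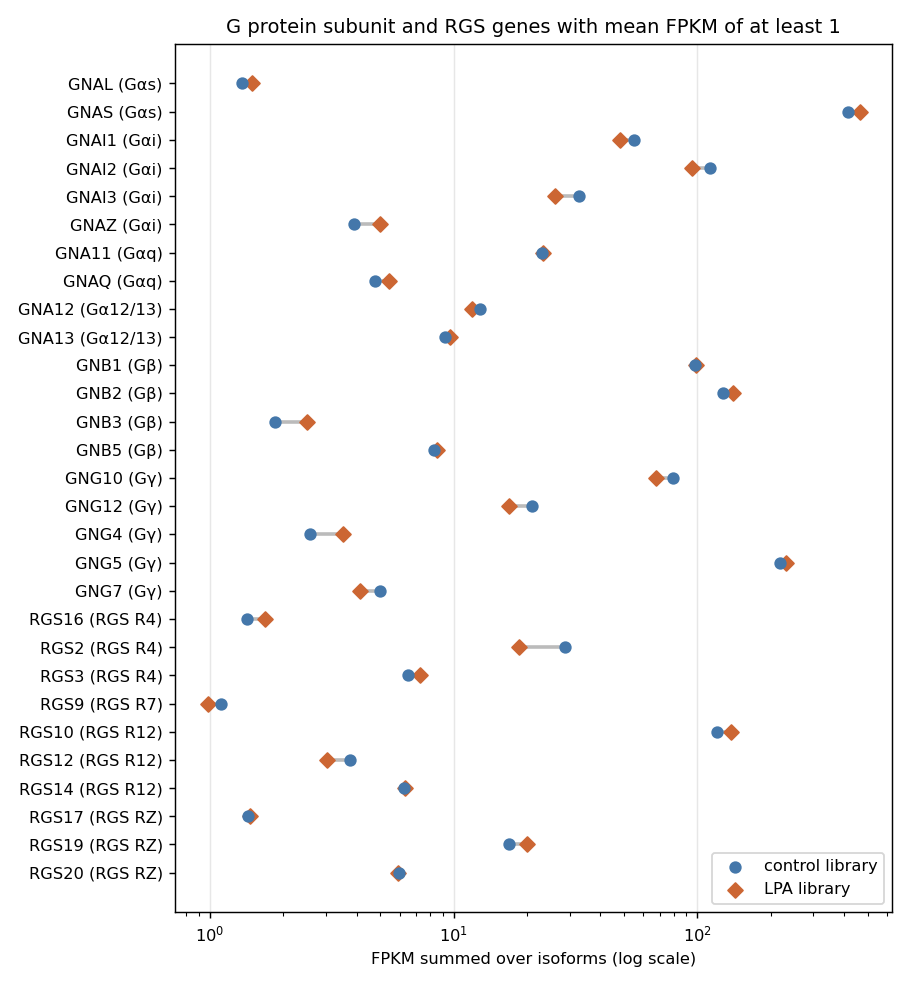
FPKM summed over isoforms (x axis, log scale) of the 29 measured members (rows, with class) in the control library (circles) and the LPA library (diamonds), 1 library each. GNAS had the highest FPKM in both libraries, and RGS2 shows the widest gap, from 28.8 to 18.5 FPKM.

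RGS2, whose product acts mainly on alpha subunits of the Gq class, had 28.8 FPKM in the control library and 18.5 FPKM in the LPA library. It was thus lower in the LPA library, with a log2 ratio of -0.61, and 150 of the 11688 genes had a log2 ratio this low or lower. The deposited bounds of its only isoform, whose level is not stated in the file, ran from 20.7 to 36.9 FPKM in the control and from 13.1 to 24.0 FPKM in the LPA library, so they overlapped. These values correspond to about 675 and 402 fragments at the estimated depth, and counting error alone gives the log2 ratio a 95% interval of -0.78 to -0.44. The gene lies on chromosome 1 (192809039 to 192812277, hg38). No stretch of 50 bases of its transcript occurs in the transcripts of another gene.

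Since RGS2 is the measured member furthest apart on the log2 ratio, the 250 bases before its start are shown, with the motif matches found in capitals. They are from RefSeq on GRCh38.p14 (chr1:192808789-192809038, plus strand).
RGS2: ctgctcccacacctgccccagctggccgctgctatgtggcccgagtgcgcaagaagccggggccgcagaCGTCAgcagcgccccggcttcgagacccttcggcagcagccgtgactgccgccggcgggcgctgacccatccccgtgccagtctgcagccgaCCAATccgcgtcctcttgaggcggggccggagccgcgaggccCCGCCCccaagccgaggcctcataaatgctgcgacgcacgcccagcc
The first stretch in capitals is the reverse strand of TGACG, the first part of the cAMP response element, at position -181. Then follow CCAAT at position -89 and the reverse strand of the GC box GGGCGG at position -47, with positions counted from the start site. On either strand, TGACG occurs in 21.2%, CCAAT in 32.0% and GGGCGG in 42.6% of the 35116 RefSeq promoters of this length. The full cAMP response element TGACGTCA (1.65% of promoters, each of which also holds TGACG), the AP-1 site TGANTCA (6.57%), TATAAA (10.7%) and TGATGNAA, a site of ATF4 with C/EBP factors (3.14%), were not found in this window. RefSeq promoters were matched for 25 of the 29 measured members.

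The other R4 family members measured, RGS16 and RGS3, had log2 ratios above 0. RGS16, a small RGS protein like RGS2, had 1.42 FPKM in control cells and 1.69 FPKM after LPA. RGS3, which also exists in long forms, had 6.51 and 7.30 FPKM (log2 ratio 0.14). The summed FPKM of the R4 family were 37.5 and 27.9, and its share of all RGS FPKM was 19.3% in control cells and 13.7% after LPA.

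RGS10, an R12 family protein that acts on Gi class subunits, held most of the RGS FPKM, with 120.6 FPKM in control cells and 137.6 FPKM after LPA (log2 ratio 0.19). Its leading isoform had bounds of 87.4 to 153.9 and 99.7 to 175.6 FPKM, which overlapped. The ratio of RGS10 to RGS2 was 4.19 in control cells and 7.43 after LPA. RGS12, whose long form is a large protein with a PDZ domain, had 3.75 and 3.03 FPKM. Of this, 66.1% and 69.3% was the isoform NM_198227 of 2900 nt. NM_002926, of 6240 nt, held 33.9% and 30.7%. RGS14, which also binds RAS family GTPases, was level at 6.25 and 6.29 FPKM. In the R12 family as a whole the LPA library held 147.0 FPKM against 130.6 FPKM in the control.

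Of the RZ family, RGS19 was the most abundant, with 16.8 FPKM in control cells and 20.0 FPKM after LPA (log2 ratio 0.23). RGS17 had 1.43 and 1.46 FPKM and RGS20, known for its action on GNAZ, had 5.95 and 5.93 FPKM. The RGS20 sum joins isoforms that went both ways, given below. Of the R7 family, whose members pair with GNB5, only RGS9 was measured, at 1.11 and 0.980 FPKM. It was the member closest to the limit of 1 FPKM from above. All 21 RGS genes together had 194.4 FPKM in control cells and 203.9 FPKM after LPA, and the ratio of RGS to alpha subunit FPKM was 0.290 and 0.295.

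**Figure D2:**
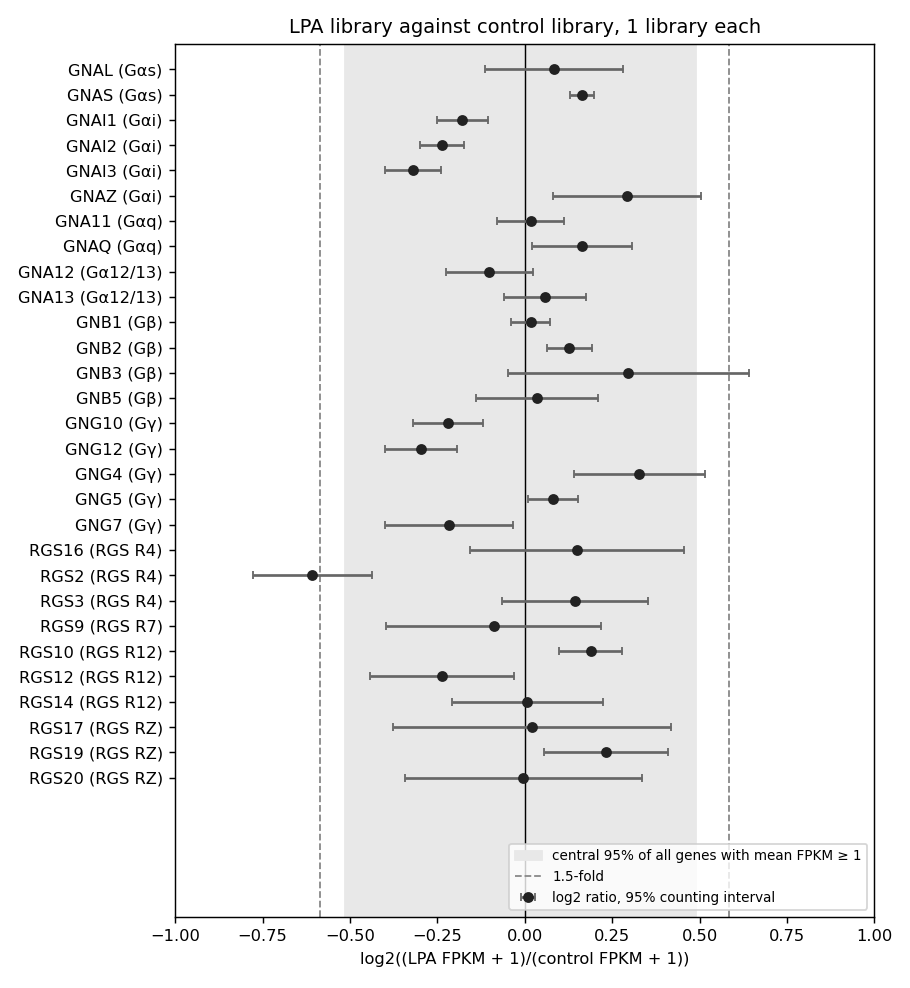
Log2 ratio of the LPA to the control library (x axis, pseudocount 1 FPKM) for the 29 measured members, with bars for the 95% interval from counting error alone. The grey band is the central 95% range of all 11688 genes (-0.51 to 0.49) and the dashed lines mark 1.5-fold. RGS2 lies outside the band and the other members inside it.

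The 95% counting interval excluded a log2 ratio of 0 for 16 of 29 members (55.2%), 8 on each side, and for 49.6% of all genes. The bounds deposited by the authors are wider. Those of the leading isoform overlapped between the libraries in all 29 measured members. Of all genes, 2.77% had a leading isoform with separate bounds, so none among 29 members is close to the background.

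Among the alpha subunits, GNAI1, GNAI2 and GNAI3 were lower and GNAS higher in the LPA library, each by an amount inside the central 95% range of single genes. GNAI2 (chromosome 3, 50226688 to 50259354) had 112.8 FPKM in control cells and 95.5 FPKM after LPA (log2 ratio -0.24). GNAI1 (chromosome 7, 80134824 to 80219409) had 54.9 and 48.4 FPKM (log2 ratio -0.18), and GNAI3 (chromosome 1, 109548564 to 109595832) had 32.8 and 26.1 FPKM (log2 ratio -0.32). All 3 genes were thus below 0, as were 5824 of 11688 genes in all. The leading isoforms of GNAI1, GNAI2 and GNAI3 had overlapping bounds, for example 23.8 to 41.7 and 19.0 to 33.2 FPKM for GNAI3. GNAZ, of the same class, had 3.90 FPKM in control cells and 5.01 FPKM after LPA (log2 ratio 0.29), also with overlapping bounds. Of the 50-base stretches of the matched transcripts, 6.88% in GNAI3 and 6.91% in GNAZ also occur in transcripts of other genes. The shares were 0.0595% in GNAI1 and 0 in GNAI2. For GNAI3 the matched transcript, with 27125 such stretches, is longer than its isoform of 4732 nt. A link between the codon shown above and RNA level was not tested. GNAO1, the main alpha subunit of neurons, was listed at 0 in each library, with its isoforms flagged OK and not as failed estimates.

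GNAS, which encodes the stimulatory alpha subunit from chromosome 20 (58818918 to 58911196), had 415.0 FPKM in control cells and 465.1 FPKM after LPA (log2 ratio 0.16). It made up 61.9% and 67.2% of all alpha subunit FPKM. GNAL, its relative of the olfactory epithelium and striatum, had 1.35 and 1.49 FPKM, with 6.67% of its 50-base stretches shared with another gene. The Gi class held 30.5% of the alpha FPKM in control cells and 25.3% after LPA, so the ratio of Gs to Gi class FPKM was 2.04 and 2.67. With no replicate it is not known how far this ratio varies between cultures.

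Summed by class, the Gq class (log2 ratio 0.05) and the GNA12 and GNA13 class (log2 ratio -0.03) were close to level. GNA11 had 23.0 FPKM in control cells and 23.3 FPKM after LPA. GNAQ, its close relative, had 4.74 and 5.43 FPKM, with a log2 ratio of 0.16, the same as that of GNAS when rounded. The counting interval excluded 0 for GNAQ, while its deposited bounds overlapped. GNA11 was 4.85 and 4.28 times GNAQ. Of their 50-base stretches, 10.9% in GNA11 and 4.39% in GNAQ also occur in transcripts of other genes, for GNAQ the copy GNAQP1. GNA14 and GNA15, a Gq class gene of blood cells, did not exceed 0.0601 FPKM. GNA12 had 12.8 and 11.9 FPKM and GNA13 had 9.23 and 9.65 FPKM. Together the alpha genes summed to 670.5 FPKM in control cells and 691.8 FPKM after LPA (log2 ratio 0.045). When only the leading isoforms were summed, the log2 ratio of this sum was -0.041, so its direction depends on how isoforms are combined.

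**Figure D3:**
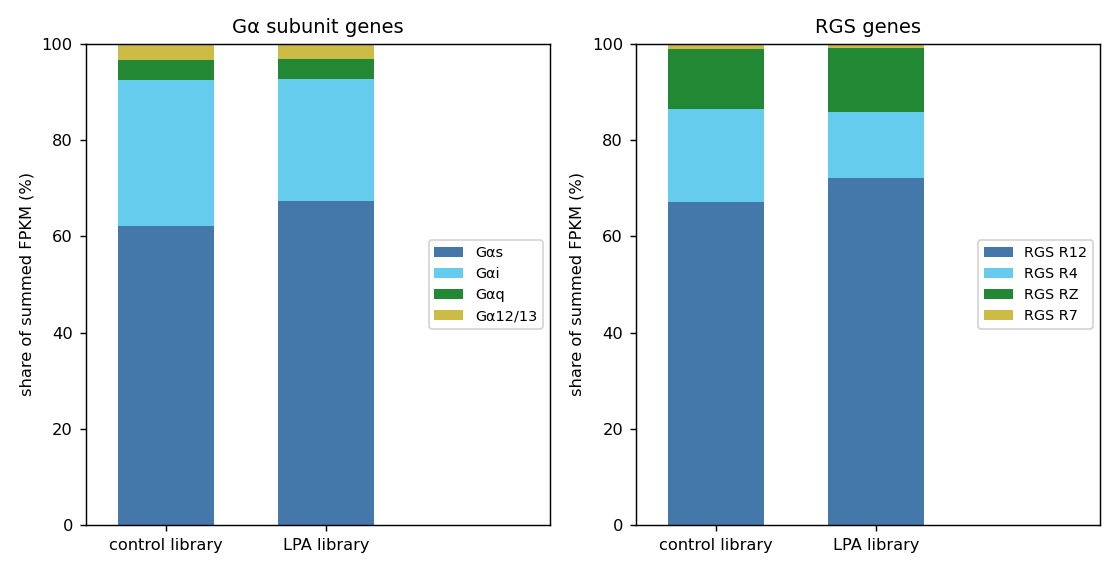
Share of summed FPKM (y axis, %) by class of alpha subunit (left) and by RGS family (right) in the control and the LPA library, 1 library each. The Gs class went from 62.1% to 67.4% of alpha FPKM, and the R4 family from 19.3% to 13.7% of RGS FPKM.

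The beta subunits, which form the propeller that holds gamma, were carried by a pair of genes. GNB2 had 127.7 FPKM in control cells and 139.7 FPKM after LPA (log2 ratio 0.13), and GNB1 had 97.8 and 99.0 FPKM. GNB5, the atypical beta subunit that joins R7 family RGS proteins, had 8.33 and 8.56 FPKM. GNB3 had 1.85 and 2.50 FPKM (log2 ratio 0.30), but 12.6% of the 50-base stretches of its transcript also occur in transcripts of other genes, nearly all in the overlapping CDCA3. GNB4 did not exceed 0.0559 FPKM. The log2 ratio was above 0 for all 4 beta genes measured, as it was for 5864 of 11688 genes in all. The counting interval excluded 0 for GNB2 but included it for GNB1, GNB3 and GNB5. For GNB1 the log2 ratio was -0.13 when its leading isoform alone was used. The beta sum was 235.8 and 249.7 FPKM.

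Gamma subunits, which carry the lipid anchor, went both ways. GNG5 had the highest FPKM with 218.4 in control cells and 231.0 after LPA. GNG10 had 79.2 and 67.9 FPKM and GNG12 had 21.0 and 16.9 FPKM (log2 ratio -0.30). GNG7 had 4.97 and 4.14 FPKM, and GNG4 had 2.58 and 3.50 FPKM (log2 ratio 0.33, the highest of all measured members). GNG12 and GNG4 had overlapping bounds. The gamma sum was level at 326.4 and 324.0 FPKM. Values of GNG10 and GNG5 are uncertain, since 72.0% and 39.8% of their 50-base stretches also occur in transcripts of other genes. For GNG10 these are mostly the read-through DNAJC25-GNG10, which shares its locus.

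In order of level in the control library, GNAS was followed by GNG5, GNB2, RGS10, GNAI2, GNB1, GNG10 and GNAI1. In the LPA library GNB1 stood before GNAI2, and the order of these genes was otherwise the same. GNB2, RGS10 and GNAI2 had overlapping bounds of their leading isoforms in the control (92.9 to 162.6, 87.4 to 153.9 and 75.0 to 135.5 FPKM), so their order is not resolved.

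Single isoforms were compared as well. Of 41 member isoforms with a mean FPKM of at least 1, 1 (2.44%) was at least 2-fold higher in the LPA library with separate bounds, against 2.19% of 16999 isoforms in all. Another 1 (2.44%) was at least 2-fold lower with separate bounds, against 1.80% in all. Both counts are close to the background.

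The higher one was RGS3 isoform NM_130795, with 0.118 FPKM (bounds 0 to 0.369) in the control and 1.96 FPKM (bounds 1.00 to 2.92) in the LPA library. It held 1.81% and 26.9% of the RGS3 FPKM. The other RGS3 isoforms that reached a mean of 1 FPKM had overlapping bounds. NM_001282923 had 1.55 FPKM in control cells and 0.593 FPKM after LPA, and the short NM_001276262 had 2.53 and 4.16 FPKM. NM_001282922, under the limit of 1 FPKM on average, had 1.23 and 0.199 FPKM. These isoforms start at different sites in the table's own grouping. About 283 and 274 fragments stood behind all 12 RGS3 isoforms together, so the split among them rests on few reads. The locus is on chromosome 9 (113444729 to 113597743).

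The lower one was RGS20 isoform NM_003702, with 2.71 FPKM (bounds 1.49 to 3.93) in the control and 0.343 FPKM (bounds 0 to 0.800) in the LPA library. From the same start site, NR_104579 had 9.44e-05 and 1.62 FPKM, also with separate bounds but a mean under 1 FPKM. NR_104578, another product of that site, 639 nt long, had 3.24 and 3.97 FPKM. The RGS20 sum was level, as given above, and rests on about 117 and 90.9 fragments.

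**Figure D4:**
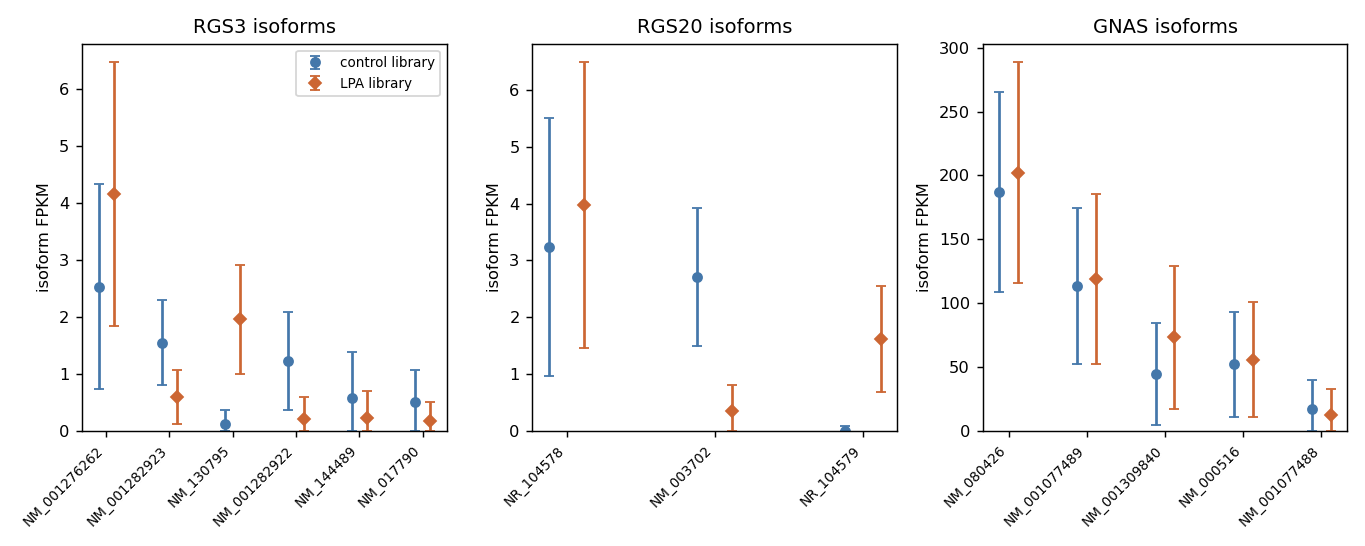
Isoform FPKM (y axis) in the control (circles) and LPA library (diamonds) with the bounds deposited by the authors, for RGS3 and RGS20 isoforms at 0.5 FPKM or more in either library and GNAS isoforms at 5 FPKM or more. Bounds are separate for NM_130795 of RGS3 and for NM_003702 and NR_104579 of RGS20, and overlap for all GNAS isoforms shown.

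GNAS makes a long and a short stimulatory subunit that differ by exon 3, which is 45 bases long and is shown because the isoforms of the most abundant member turn on it (chr20:58898941-58898985, plus strand, GRCh38, from GENCODE release 29).
GNAS exon 3: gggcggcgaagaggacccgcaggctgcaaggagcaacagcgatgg
NM_000516 and NM_001077488, which include it, had 68.9 FPKM together in control cells and 67.8 FPKM after LPA. NM_080426 and NM_001077489, which skip it, had 300.2 and 321.0 FPKM. The short form was thus 81.3% and 82.6% of these 4 isoforms, and close to level between the libraries. Most of the higher GNAS sum lay instead in NM_001309840, an isoform from another start site, with 44.2 FPKM (bounds 4.33 to 84.1) in the control and 73.1 FPKM (bounds 17.0 to 129.3) in the LPA library. NM_016592, which encodes the neuroendocrine protein NESP55, was listed at 0 and at 0.0825 FPKM.

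The remaining 17 members were not measured. Of these, 8 were listed at 0 in both libraries, namely GNAO1, RGS1, RGS7, RGS8, RGS13, RGS18, RGS21 and RGS22. The other 9 had values of at most 0.896 FPKM. They were GNA14, GNA15, GNB4, GNG2, GNG11, RGS4, RGS5, RGS6 and RGS11. Just under the limit was RGS6, with 0.896 FPKM in control cells and 0.679 FPKM after LPA. RGS5, a gene of pericytes, had 0.624 and 0.284 FPKM, on about 64.0 and 26.8 fragments. GNG11 had 0.148 and 0.476 FPKM on about 2.46 and 7.29 fragments, and RGS4 had 0.164 and 0.0657 FPKM on about 8.33 and 3.22 fragments. As plain ratios of LPA to control these were 0.455 for RGS5, 3.22 for GNG11 and 0.401 for RGS4, further from level than RGS2 at 0.644.

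Genes around the G proteins were compared by lists. Counts above or below 0 in these and later lists stand against 5864 and 5824 of all genes. Counts at 1.5-fold stand against 1.45% of all genes higher and 1.54% lower. Of the LPA receptors, which couple to these subunits, 4 of 6 were measured, with LPAR2 at 15.6 FPKM in control cells and 21.9 FPKM after LPA, LPAR1 at 3.32 and 2.54 FPKM and LPAR5 at 3.61 and 2.95 FPKM. None was 1.5-fold apart.

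Downstream of the Gq class, 5 of 11 genes of phospholipase C beta, protein kinase C and inositol trisphosphate receptors were measured and none was 1.5-fold apart. ITPR3 had 13.2 FPKM in control cells and 15.4 FPKM after LPA, PRKCA 1.18 and 1.49 FPKM, and PLCB1 1.17 and 0.863 FPKM. Downstream of Gs and Gi, the list held adenylyl cyclases and protein kinase A subunits, with CREB1, RAPGEF3 and RAPGEF4. Of its 18 genes 11 were measured, and 1 of these was at least 1.5-fold lower, where 1.54% of all genes were. This was PRKACB, a catalytic subunit of protein kinase A, with 68.1 and 44.7 FPKM (log2 ratio -0.60). PRKACA, the other catalytic subunit, had 29.6 and 30.2 FPKM, and the regulatory subunit PRKAR1B 7.28 and 9.65 FPKM. CREB1, the factor that kinase activates, had 3.83 and 2.90 FPKM.

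Among effectors of beta-gamma, 3 genes were measured, all within 1.5-fold. PIK3CB had 5.41 and 5.77 FPKM, PREX1 1.18 and 0.944 FPKM and the receptor kinase gene ADRBK1 36.0 and 35.2 FPKM. Of receptor kinases and arrestins 6 were measured, with 4 above 0 and 2 below. ARRB2 had 30.1 and 32.3 FPKM, ARRB1 5.76 and 6.46 FPKM, and GRK5 3.91 and 4.58 FPKM.

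Depth was estimated from the FPKM at about 17400000 control and 16100000 LPA fragments. The label of the cells was checked against markers. The epithelial gene EPCAM had 220.4 and 223.2 FPKM, and 7 of 8 epithelial markers were measured, VIL1 being listed at 0. Of the 7 measured, 6 were above 0 and 1, CLDN4, was below. The keratin genes KRT18 and KRT19 had 442.2 and 741.4 FPKM (log2 ratio 0.74) and 988.9 and 1268 FPKM (log2 ratio 0.36), whereas the tight junction gene CLDN4 had 209.7 and 159.9 FPKM (log2 ratio -0.39). Of 8 fibroblast markers 1 was measured (COL1A1, 5.75 and 4.28 FPKM), of 8 immune markers 1 (CD68, 2.64 and 2.85 FPKM) and of 6 endothelial markers none, and PTPRC, DCN and LUM were listed at 0.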

How the data were processed

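The table deposited by the authors gives FPKM per isoform, with bounds below and above it and a status flag, per the file headers. It was made with TopHat2 2.0.12, Cufflinks, Cuffdiff 2.2.0 and bcl2fastq 2.16.0.10 on hg38, per the submitters' processing notes. Settings and scaling: not given in the sources used here. Libraries were made without a strand mark, per the kit in the labels' protocols, so overlapping antisense transcripts (such as GNG12-AS1 at GNG12) cannot be separated.

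Isoforms with status HIDATA in the LPA library (16) were treated as missing. All member isoforms had the status OK. FPKM were summed per symbol and compared as log2 ratios with a pseudocount of 1 among genes averaging 1 FPKM or more, with Python 3.11.15, numpy 2.4.6 and pandas 2.3.3. Limits of 2-fold and 1.5-fold were applied to this ratio.

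Depth was estimated from the lowest FPKM multiplied by length among genes with 1 isoform over 2000 nt. Counting intervals (95%) follow from these fragment numbers and cover counting error only. Calculations were tested on simulated data. Sharing between genes was counted over 50-base stretches of GENCODE release 29 transcripts on either strand.

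The members and gene lists were chosen with earlier results of these data known. Every member was to be named. Of each other list the 3 measured genes with the largest log2 ratio in size, and any at least 1.5-fold apart, were named, and PRKACA and EPCAM were added after their values were seen. The result of 1 list is not reported here. Alternatives were pseudocounts of 0.1 and 5, other limits on mean FPKM, the leading isoform only, centring on the median of all genes, isoforms by status, class code and length.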

Additional observations from a re-analysis of the deposited data

How the results depend on the processing

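Only the pseudocount and centring could move RGS2, which has 1 isoform. It was at -0.63 with a pseudocount of 0.1 and at -0.61 after centring. With a pseudocount of 5 it was at -0.52, and the count at least 1.5-fold lower was 0. No other member was 1.5-fold apart under any alternative run. The log2 ratio of the alpha subunit sum was 0.045, and -0.041 when only leading isoforms were summed. The other counts, the median of the members and the sums of beta, gamma and RGS genes stayed within their limits. Of 230 values of single members under alternatives, 130 equalled the reported value, many because no member isoform was touched by the settings on status and length. Of the 100 that differed, 97 moved by less than the counting interval. The other 3 came from the leading isoform alone: GNAS (0.11), GNB1 (-0.13) and RGS3 (0.55). Under that setting 2 genes had the opposite sign, GNB1 and RGS20 (0.23). The median of all genes was 0.0009, so centring changed little. No paired analysis was possible because each group holds 1 library. Low isoforms rest on few fragments, which limits their values.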

Other observations

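Members of the wider family outside the list had low values. Of GNAT1, GNAT2, GNAT3, GNG3, GNG8, GNG13, GNGT1 and GNGT2 only GNG3, a gamma subunit known from neurons, was measured, with 1.16 FPKM in control cells and 1.19 FPKM after LPA. GNG13 had 0.696 and 0.931 FPKM, and GNAT3, GNG8 and GNGT2 were listed at 0. Among chaperones and modulators of alpha subunits 8 of 14 genes were measured, 5 below 0 and 3 above, with a median log2 ratio of -0.21 and none 1.5-fold apart on the scale with a pseudocount of 1. RIC8B, a chaperone of the Gs class, had 3.85 and 2.42 FPKM (log2 ratio -0.50, and 0.629 as a plain ratio of LPA to control), PDCL, which helps beta-gamma assemble, had 10.2 and 6.89 FPKM (log2 ratio -0.51), and NUCB2 had 17.9 and 14.0 FPKM.

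Enzymes that attach or process the lipid anchors of alpha and gamma subunits were all measured, 7 of 10 above 0. FNTB, the beta subunit of farnesyltransferase, had 1.85 and 2.83 FPKM (log2 ratio 0.42, and 1.53 as a plain ratio), FNTA, its alpha subunit, had 48.1 and 39.3 FPKM, and the carboxyl methyltransferase gene ICMT had 18.4 and 23.2 FPKM. Of 8 relatives with an RGS-like domain 5 were below 0, with SNX13 at 3.84 and 2.71 FPKM, SNX14 at 19.5 and 16.4 FPKM and AXIN2 at 3.07 and 2.48 FPKM. None of these genes was 1.5-fold apart on the scale with the pseudocount, though FNTB was as a plain ratio.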
